A study of Mus musculus with 4 samples.

Results

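The 10 genes described here encode the ephrins *Efna2*, *Efna4*, *Efnb1* and *Efnb2* and the Eph receptors *Epha2*, *Epha4*, *Epha7*, *Ephb2*, *Ephb3* and *Ephb4*. They were taken by name, as ligands and receptors linked to the boundaries of cranial sutures, and all 10 were found among the 23946 genes measured. RNA was profiled from the frontal bone, a derivative of neural crest, and from the parietal bone, a derivative of mesoderm, at postnatal day 21. The mice were wild-type or *Twist1*+/-, both on the C57BL/6J background, with 12 mice of each strain. *Twist1*+/- mice lack 1 functional copy of *Twist1* in every cell, and wild-type mice carry no *Twist1* mutation. There were 4 libraries, namely wild-type frontal, *Twist1*+/- frontal, wild-type parietal and *Twist1*+/- parietal bone. How the RNA of the mice was divided among libraries is not given in the sources used here. The bones that were profiled included pericranium and dura mater beside the bone plate, and it is not stated whether suture tissue was part of them.

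Ephrins are ligands held at the cell surface, and they signal to Eph receptor tyrosine kinases on a neighbouring cell. Ephrins of class A are anchored by a lipid and mostly bind EphA receptors, whereas ephrins of class B cross the membrane and mostly bind EphB receptors. *Epha4* binds ligands of both classes. Signals pass into the cell with the receptor (forward) and into the cell with the ephrin (reverse), and they commonly make cells repel each other and so keep tissues apart. At the coronal suture this system helps to separate the cells of the frontal and parietal territories, and reduced *Twist1* disturbs that boundary. Mutations of *EFNB1* cause craniofrontonasal syndrome, and variants of *EFNA4* have been found in people with coronal craniosynostosis. *Efnb2* and *Ephb4* also take part in the exchange between osteoclasts and osteoblasts and mark arteries and veins.

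Expression was given as FPKM (fragments mapped to a gene, scaled by transcript length and by library size), a level per length, so that genes can be compared within a library. Each condition had 1 library, so no difference could be set against a spread between replicates and p-values were not computed. In these bulk samples, fewer cells of a type and less RNA per cell cannot be told apart. The targeted gene *Twist1* had 59.0 FPKM in wild-type and 30.4 FPKM in *Twist1*+/- frontal bone, and 52.5 FPKM in wild-type and 50.7 FPKM in *Twist1*+/- parietal bone. Its level was lower by 1.94-fold with the mutation in frontal bone but by 1.04-fold in parietal bone, so the latter is called the library labelled *Twist1*+/- parietal throughout. Low FPKM values fell on steps, and the first step of each library was taken to stand for 1 read. By that estimate, 1 read was worth 1.32 (*Twist1*+/- frontal), 1.67 (wild-type parietal) and 1.695 (labelled *Twist1*+/- parietal) times as much as in wild-type frontal bone. Wild-type frontal would then be the deepest library, which was not checked against read counts. By the same steps and the transcript lengths of the reference, a member rested on approximately 57 reads at the fewest (*Epha7*, labelled *Twist1*+/- parietal) and 2891 at the most (*Efnb1*, wild-type frontal). These read numbers are estimates, and they say nothing of the spread between mice.

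Markers of other cells differed between the libraries. Osteoblast markers were abundant in all of them, with a summed level of 11089 to 18959.5 FPKM over 10 genes. Osteocyte markers (6 genes) summed to 251 to 611 FPKM and osteoclast markers (10 genes) to 2659 to 9256 FPKM, both lowest in wild-type frontal and highest in wild-type parietal bone. Skeletal muscle markers (10 genes) summed to 131 FPKM in wild-type frontal bone and to 1585 to 4269.6 FPKM in the others. Meningeal markers (8 genes) summed to 2032 FPKM in wild-type frontal bone and 92.7 to 468 FPKM in the others. *Ptgds* alone was at 1975 FPKM in wild-type frontal bone and made up most of that sum. *Slc47a1* (5.72 FPKM) and *Foxd1* (5.57 FPKM) were lowest in that library, while the other meningeal markers were highest in it. Neuronal and glial markers (10 genes) summed to 83.6 FPKM in wild-type parietal bone against 355 to 407 FPKM elsewhere, and epithelial markers (10 genes) to 6.83 and 16.1 FPKM in the wild-type libraries against 54.5 and 60.8 FPKM in those labelled *Twist1*+/-. Markers of blood cells in the marrow (10 genes) summed to 13834 to 26352 FPKM, with *Hba-a1* listed at 0 in wild-type frontal bone, the only marker at 0. In the other libraries *Hba-a1* was at 11198 to 17813 FPKM, so the sums depend largely on it. The other markers of this list were all higher in wild-type frontal than in wild-type parietal bone.

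*Efnb1* was the most abundant of the 10 genes in each library, followed by *Ephb4*, *Epha2* and *Efnb2* in that order, and *Epha7* was the least abundant. Levels ran from 0.364 FPKM (*Epha7*, labelled *Twist1*+/- parietal) to 33.97 FPKM (*Efnb1*, labelled *Twist1*+/- parietal). Compared with the median of the genes at or above 1 FPKM, which lay between 9.18 and 10.0005 FPKM, only *Efnb1* was higher in all 4 libraries. Between the fifth and the ninth place the order changed from library to library, and with 1 library each, neighbours there cannot be told apart. The plot of levels by gene and library shows the 4 leading genes and the spread within each gene.

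**Figure D1:**
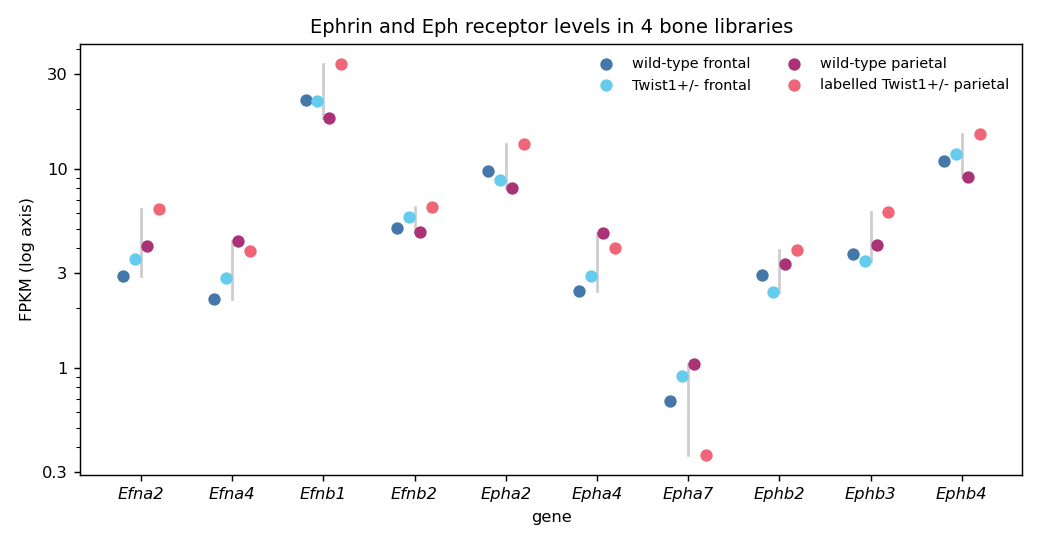
FPKM of each of the 10 genes (log axis) in the 4 libraries, 1 point per library and no replicates, with a grey line from the lowest to the highest library. *Efnb1* is highest, at 18.1 to 33.97 FPKM, *Epha7* is lowest, at 0.364 to 1.04 FPKM, and no gene has its highest value in a frontal library.

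Among the ligands of class A, *Efna2* was at 2.89 FPKM in wild-type frontal, 3.52 FPKM in *Twist1*+/- frontal, 4.12 FPKM in wild-type parietal and 6.32 FPKM in the labelled *Twist1*+/- parietal library. Both parietal libraries were thus above both frontal libraries, and within each bone the *Twist1*+/- label had the higher value. In mm9, *Efna2* spans bases 79642227 to 79652755 of chromosome 10 (forward strand) in 4 exons. *Efna4* was at 2.23 FPKM in wild-type frontal, 2.84 FPKM in *Twist1*+/- frontal, 4.37 FPKM in wild-type parietal and 3.87 FPKM in the labelled *Twist1*+/- parietal library. Its parietal values also exceeded its frontal values in both genotypes, but the highest was that of wild-type bone. In mm9, *Efna4* spans bases 89137312 to 89141950 of chromosome 3 (reverse strand) in 4 exons. Its exons overlap a gene on the other strand, *4731419I09Rik*, and although the library kit keeps strand, the setting used in quantification is not stated.

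Among the ligands of class B, *Efnb1* was at 22.4 FPKM in wild-type frontal, 22.0 FPKM in *Twist1*+/- frontal, 18.1 FPKM in wild-type parietal and 33.97 FPKM in the labelled *Twist1*+/- parietal library. The frontal libraries nearly coincided, and the parietal libraries lay on either side of them. In mm9, *Efnb1* spans bases 96331469 to 96344330 of the X chromosome (forward strand). *Efnb2* was at 5.05 FPKM in wild-type frontal, 5.75 FPKM in *Twist1*+/- frontal, 4.85 FPKM in wild-type parietal and 6.46 FPKM in the labelled *Twist1*+/- parietal library. It varied least of the 10 genes, by 1.33-fold from the lowest to the highest library, and both libraries labelled *Twist1*+/- were above both wild-type libraries. In mm9, *Efnb2* spans bases 8617434 to 8661239 of chromosome 8 (reverse strand).

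Among the EphA receptors, *Epha2*, a receptor of epithelial and bone cells, was at 9.76 FPKM in wild-type frontal, 8.79 FPKM in *Twist1*+/- frontal, 8.005 FPKM in wild-type parietal and 13.3 FPKM in the labelled *Twist1*+/- parietal library. The last was the only value to stand away from the others. *Epha4* was at 2.43 FPKM in wild-type frontal, 2.91 FPKM in *Twist1*+/- frontal, 4.8016 FPKM in wild-type parietal and 4.01 FPKM in the labelled *Twist1*+/- parietal library. This is the order of libraries seen for *Efna4*, a ligand of class A, with both parietal libraries above both frontal ones and wild-type parietal bone highest. *Epha7*, a receptor of the developing nervous system, was at 0.683 FPKM in wild-type frontal, 0.911 FPKM in *Twist1*+/- frontal, 1.04 FPKM in wild-type parietal and 0.364 FPKM in the labelled *Twist1*+/- parietal library. It had the widest ratio of the 10 genes, 2.87 between the parietal libraries, at a level near or below 1 FPKM and on approximately 57 to 184 reads. In mm9, *Epha2* lies on chromosome 4 from 140857155 to 140885299 and *Epha7* on the same chromosome from 28740281 to 28894649, both on the forward strand, while *Epha4* lies on chromosome 1 from 77363760 to 77511663 on the reverse strand.

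Among the EphB receptors, *Ephb2* was at 2.94 FPKM in wild-type frontal, 2.42 FPKM in *Twist1*+/- frontal, 3.34 FPKM in wild-type parietal and 3.94 FPKM in the labelled *Twist1*+/- parietal library. *Ephb3* was at 3.75 FPKM in wild-type frontal, 3.47 FPKM in *Twist1*+/- frontal, 4.16 FPKM in wild-type parietal and 6.09 FPKM in the labelled *Twist1*+/- parietal library. These receptors, which act together in the closure of the palate, shared 1 order of libraries, with the parietal values above the frontal ones. *Ephb4*, the receptor of *Efnb2*, was at 11.0 FPKM in wild-type frontal, 12.0 FPKM in *Twist1*+/- frontal, 9.17 FPKM in wild-type parietal and 14.97 FPKM in the labelled *Twist1*+/- parietal library. Like its ligand, it was higher in both libraries labelled *Twist1*+/- than in both wild-type libraries. In mm9, *Ephb2* lies on chromosome 4 from 136203454 to 136391903 (reverse strand), *Ephb3* on chromosome 16 from 21204828 to 21223378 (forward strand) and *Ephb4* on chromosome 5 from 137791337 to 137819897 (forward strand). Exons of *Ephb4* overlap those of *Zan* on the other strand, which was at no more than 0.0868 FPKM in any library.

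None of the 10 genes shared a stretch of 75 bases, the read length, with a coding transcript of another gene, in their longest coding transcripts.

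Seen over all 4 libraries, 7 genes (*Efna2*, *Efnb1*, *Efnb2*, *Epha2*, *Ephb2*, *Ephb3* and *Ephb4*) had their highest value in the library labelled *Twist1*+/- parietal, and 3 (*Efna4*, *Epha4* and *Epha7*) in wild-type parietal bone. Of the 14760 genes that reached 1 FPKM somewhere, 21.9% were highest in the former and 35.5% in the latter. Both parietal libraries exceeded both frontal ones for 5 genes (*Efna2*, *Efna4*, *Epha4*, *Ephb2* and *Ephb3*), as they did for 24.6% of all genes, and the reverse held for 0 members against 26.9% of all genes. Both libraries labelled *Twist1*+/- exceeded both wild-type ones for *Efnb2* and *Ephb4*, against 12.4% of all genes, and the reverse held for 0 members against 15.8%.

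The first comparison asked how the *Twist1*+/- label changed these genes in parietal bone. None of the 10 genes differed by more than 3-fold with at least 1 FPKM in the higher library, the fold threshold of the study, against 8.19% of 13914 genes. By more than 1.5-fold, a lower limit used to describe smaller differences, *Efnb1* (1.87-fold), *Epha2* (1.67-fold), *Ephb4* (1.63-fold) and *Efna2* (1.53-fold) were higher in the library labelled *Twist1*+/-, 4 of 10 against 21.2% of all genes. *Epha7* was lower by 2.87-fold, 1 of 10 against 23.8% of all genes. The remaining ratios were 1.46-fold for *Ephb3*, 1.33-fold for *Efnb2* and 1.18-fold for *Ephb2*, all higher with the label, while *Efna4* and *Epha4* were lower by 1.13-fold and 1.20-fold, a direction that turned for both when the libraries were scaled to the same *Gapdh* value. The median log2 ratio of the 10 genes was 0.48, and that of all genes was -0.06, with 80% of genes between -0.96 and 1.03.

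The GC content of the transcript moved with this comparison. Across 12554 genes, which are not independent replicates, the log2 ratio of the library labelled *Twist1*+/- to wild-type parietal bone had a Spearman correlation of 0.546 with GC content. The median of 20 groups of genes by GC content went from -0.59 in the lowest to 0.70 in the highest. The 10 genes had a median GC content of 56.9%, against 49.6% over 19341 genes with a value, and *Efna2*, *Efnb1*, *Epha2*, *Ephb3* and *Ephb4* all lay between 56.9% and 58.5%. Genes of the GC content of *Efnb1* had a median log2 ratio of 0.55, that of *Efnb1* being 0.90, and genes of the GC content of *Ephb4* also had 0.55, that of *Ephb4* being 0.71. After the median of its GC group was subtracted, *Efnb1* was at 0.35, *Epha2* at 0.29, *Ephb4* at 0.15, *Ephb3* at 0.10 and *Efna2* at 0.04, none of them past 1.5-fold. *Efnb2* (47.9% GC) went instead from 0.41 to 0.74, *Efna4* (56.8% GC) from -0.18 to -0.63 and *Epha4* (45.6% GC) from -0.26 to 0.21. *Epha7* (41.7% GC) kept the lowest value, -0.92 after -1.52. The median of the 10 genes became 0.13.

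**Figure D2:**
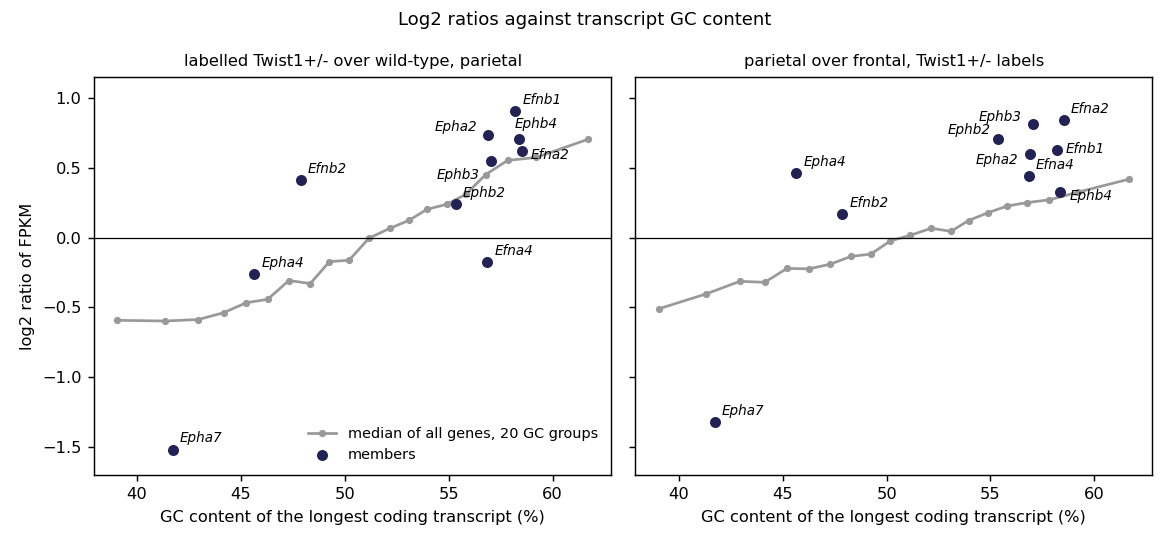
Log2 ratio of FPKM against the GC content of the longest coding transcript (%), for the library labelled *Twist1*+/- parietal over wild-type parietal (left) and over *Twist1*+/- frontal bone (right). Blue points are the 10 genes, 1 value each, and the grey line joins the medians of 20 groups of all genes, which go from -0.59 to 0.70 on the left and from -0.51 to 0.42 on the right, and *Epha7* lies farthest below the line in both.

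Markers of several cell types moved in the same comparison. The shares of all genes past 1.5-fold in it were 21.2% upward and 23.8% downward. For the marker lists the GC group median was not subtracted. The part of GC content in their counts and medians was therefore not tested. All 10 epithelial markers were higher by more than 3-fold in the library labelled *Twist1*+/- parietal, with a median log2 ratio of 3.69. Endothelial markers, of which none was at 0 in any library and whose sum went from 206 to 260 FPKM, were higher by more than 1.5-fold for 4 of 10 genes and lower for 0, with a median of 0.55, and 6 arterial markers went from 42.2 to 63.7 FPKM in sum, with a median of 0.62. Of the neuronal and glial markers, 6 of 10 were higher by more than 1.5-fold and 1 was lower. Of the osteoblast markers, 6 of 10 were higher by more than 1.5-fold and 1 was lower, with a median of 0.70. For osteoclasts, 5 of 10 markers were lower by more than 1.5-fold and 0 higher (median -0.47). For osteocytes, 4 of 6 were lower and 2 higher (median -1.0004). For skeletal muscle, 5 of 10 were lower and 3 higher (median -0.75). Marrow markers were higher for 4 of 10 genes and lower for 0 (median 0.46). The part of these cells in the higher values of *Efnb1*, *Epha2* and *Ephb4* was not tested.

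In frontal bone, where *Twist1* itself differed by 1.94-fold, the members differed least. *Efna4* (1.27-fold), *Efna2* (1.22-fold), *Epha4* (1.20-fold), *Efnb2* (1.14-fold) and *Ephb4* (1.09-fold) were higher in *Twist1*+/- bone, as was *Epha7* (1.33-fold), which stayed below 1 FPKM in both libraries. *Ephb2* (1.22-fold), *Epha2* (1.11-fold) and *Ephb3* (1.08-fold) were lower, and *Efnb1* was lower by 1.02-fold, a direction that turned when the median ratio of all genes was set to 0. None of the 10 genes passed 3-fold, against 3.89% of 14341 genes, and none passed 1.5-fold, against 8.01% of all genes higher and 7.23% lower. The median log2 ratio was 0.16 for the 10 genes and -0.04 for all genes. In the same libraries all 10 skeletal muscle markers were higher by more than 3-fold in *Twist1*+/- bone, with a median log2 ratio of 3.73, and 8 of 10 epithelial markers were higher by more than 1.5-fold.

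Between the wild-type bones the question was how the bone derived from mesoderm differs from that derived from neural crest. *Epha4* (1.98-fold), *Efna4* (1.96-fold) and *Epha7* (1.53-fold) were higher in parietal bone by more than 1.5-fold, 3 of 10 against 23.0% of all genes. *Epha7* was under 1.5-fold in all 5 other settings of the ratio, at log2 ratios of 0.17 to 0.58, and scaling to the same *Gapdh* value also took *Epha4* (0.54) and *Efna4* (0.52) under it. *Efna2* was higher by 1.43-fold, and past 1.5-fold (0.69) after the GC group median was subtracted. *Ephb2* and *Ephb3* were higher by 1.13-fold and 1.11-fold, with a direction that turned for these 2 receptors when the libraries were scaled to the same *Gapdh* value. *Efnb1* (1.23-fold), *Epha2* (1.22-fold), *Ephb4* (1.19-fold) and *Efnb2* (1.04-fold) were lower in parietal bone, 0 of 10 by more than 1.5-fold against 25.6% of all genes. None passed 3-fold, against 13.3% of 14214 genes. The ratios of *Epha4* and *Efna4* lay within the spread of these bones, since 27.1% and 27.5% of all genes differed by more. By more than 1.5-fold, 7 of 10 neuronal and glial markers were lower in wild-type parietal bone and 0 higher. Of the meningeal markers, 5 of 8 were lower and 2 higher (*Slc47a1* and *Foxd1*). Of the marrow markers, 9 of 10 were lower and 1 higher (*Hba-a1*). The osteoclast and the muscle lists each had 9 of 10 markers higher and 0 lower. The part of these cells in the differences of *Epha4* and *Efna4* was not tested.

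Because *Epha4* and *Efna4* were the pair nearest to 2-fold between the wild-type bones, the 250 bases before their annotated starts are shown (RefSeq, GRCm38.p6, on the strand of the gene, 5′ to 3′), together with those of *Ephb3*, the member with the most matches to CANNTG, the E-box motif bound by *Twist1* and other bHLH factors. These 3 genes were chosen for display after their values and matches were seen. The motif reads the same on both strands, and matches are in capitals. The windows are chr3:89338029-89338278 (reverse strand) for *Efna4*, chr1:77515089-77515338 (reverse strand) for *Epha4* and chr16:21204545-21204794 (forward strand) for *Ephb3*.
Efna4: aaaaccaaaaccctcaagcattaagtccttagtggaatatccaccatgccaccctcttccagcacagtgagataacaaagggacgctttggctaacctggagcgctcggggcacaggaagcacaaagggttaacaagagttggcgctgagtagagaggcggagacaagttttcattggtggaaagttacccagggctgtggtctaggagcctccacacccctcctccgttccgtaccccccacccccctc
Epha4: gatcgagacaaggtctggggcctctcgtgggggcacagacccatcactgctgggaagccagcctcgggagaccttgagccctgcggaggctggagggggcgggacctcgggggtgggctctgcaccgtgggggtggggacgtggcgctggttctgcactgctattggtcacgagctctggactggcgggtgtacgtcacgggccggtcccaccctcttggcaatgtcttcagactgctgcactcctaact
Ephb3: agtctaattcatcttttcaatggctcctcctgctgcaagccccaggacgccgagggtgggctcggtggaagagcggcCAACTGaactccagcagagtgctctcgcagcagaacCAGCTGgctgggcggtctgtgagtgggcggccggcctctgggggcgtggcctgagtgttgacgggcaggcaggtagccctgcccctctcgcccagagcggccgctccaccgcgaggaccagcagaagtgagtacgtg

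*Ephb3* held 2 matches, CAACTG at 173 bases and CAGCTG at 137 bases before the start. *Efnb2* held CACCTG at 167 bases, *Ephb2* held CAGGTG at 25 bases and *Ephb4* held CACATG at 243 bases, and the other 6 genes, *Efna4* and *Epha4* among them, held no match in this window. Of 32851 promoters of the same length, 66.2% held at least 1 match and 31.8% at least 2. A match is a match of letters only, and its absence says only that these letters are not in this window.

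Between the bones labelled *Twist1*+/-, *Efna2* (1.80-fold), *Ephb3* (1.76-fold), *Ephb2* (1.63-fold), *Efnb1* (1.55-fold) and *Epha2* (1.52-fold) were higher in parietal bone by more than 1.5-fold, 5 of 10 against 11.6% of all genes. *Epha4* (1.38-fold), *Efna4* (1.36-fold), *Ephb4* (1.25-fold) and *Efnb2* (1.12-fold) were also higher. *Epha7* was lower by 2.50-fold but stayed under 1 FPKM in both libraries and was not counted, which left 0 of 10 past 1.5-fold in that direction against 18.9% of all genes. None of the 10 passed 3-fold, against 4.09% of 14305 genes. Here too the ratio moved with GC content (Spearman correlation of 0.416 over 12979 genes), and after subtraction of the GC group median *Epha4* alone was past 1.5-fold upward, at a log2 ratio of 0.68, with *Ephb3* at 0.56, *Efna2* at 0.52 and *Ephb2* at 0.48. The median log2 ratio of the 10 genes was 0.53, or 0.35 after subtraction, and that of all genes was -0.03. By more than 1.5-fold, 6 of 10 osteoclast and 3 of 6 arterial markers were higher in parietal bone, and 0 of either list lower. Of the neuronal and glial markers, 7 of 10 were lower and 0 higher, and of the marrow markers 5 of 10 were lower and 1 higher. The GC group median was not subtracted for these marker lists. The part of these cells in the values of the 10 genes was not tested. This comparison and that of the wild-type bones share no library, whereas each shares libraries with the comparisons of genotypes.

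**Figure D3:**
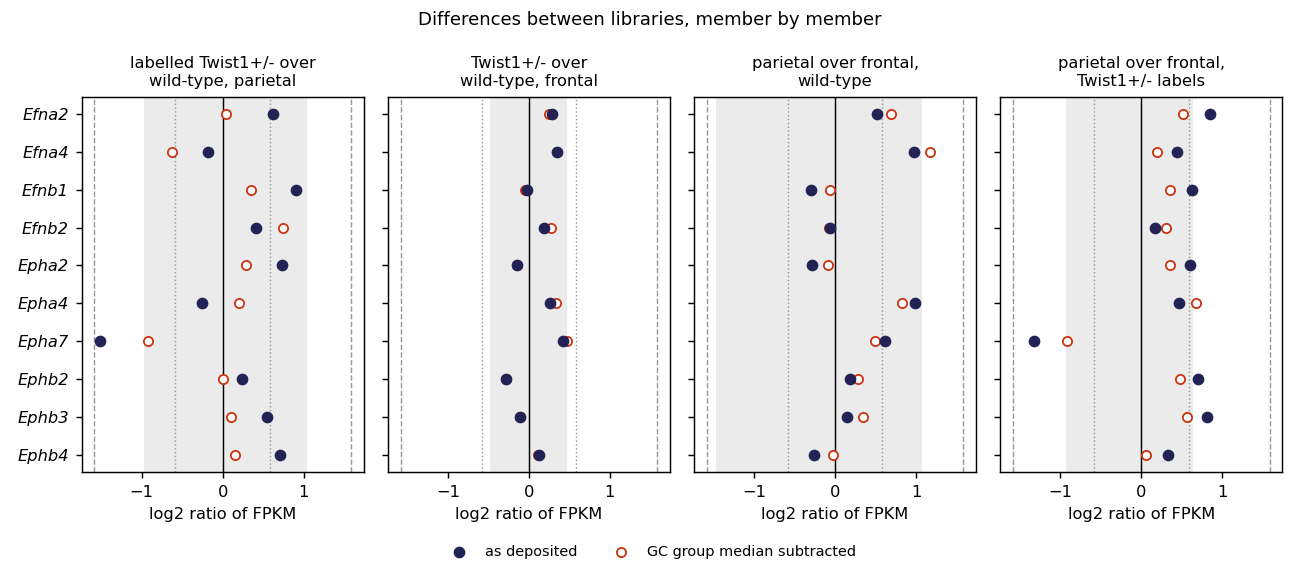
Log2 ratio of FPKM for each of the 10 genes in the 4 comparisons, as deposited (filled) and after subtraction of the median of genes of similar GC content (open); no value has a replicate. Dotted lines mark 1.5-fold, dashed lines 3-fold and the grey band the central 80% of all genes, which is narrowest between the frontal bones (-0.47 to 0.46); no filled point passes 3-fold.

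The 10 genes belong to a family of 8 ephrins and 14 Eph receptors, all of which were listed. The 4 ephrins described here made up 50.7% of the summed ephrin FPKM in wild-type frontal, 45.5% in *Twist1*+/- frontal, 42.5% in wild-type parietal and 50.7% in the library labelled *Twist1*+/- parietal. The 6 receptors made up 73.4%, 78.0%, 71.5% and 84.7% of the summed Eph receptor FPKM in the same order. *Efnb1* alone was 24.5% to 34.8% of the ephrins. *Ephb4* was 21.5% to 30.6% of the receptors, and *Epha2* was 18.8% to 26.5%. *Ephb4* was the highest receptor in each library, followed by *Epha2* except in wild-type parietal bone, where *Epha3* (8.23 FPKM) was above *Epha2* (8.005 FPKM). The other large contributors were ligands of class A, *Efna1*, an ephrin of endothelium and epithelium, at 10.8, 12.7, 20.5 and 25.3 FPKM, and *Efna5*, a guidance ligand of axons, at 12.5, 16.0, 17.2 and 18.6 FPKM. Class A ephrins summed to 31.4 FPKM in wild-type frontal, 42.4 FPKM in *Twist1*+/- frontal, 46.6 FPKM in wild-type parietal and 56.7 FPKM in the labelled *Twist1*+/- parietal library, higher in parietal than in frontal bone and higher with the *Twist1*+/- label in both bones.

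**Figure D4:**
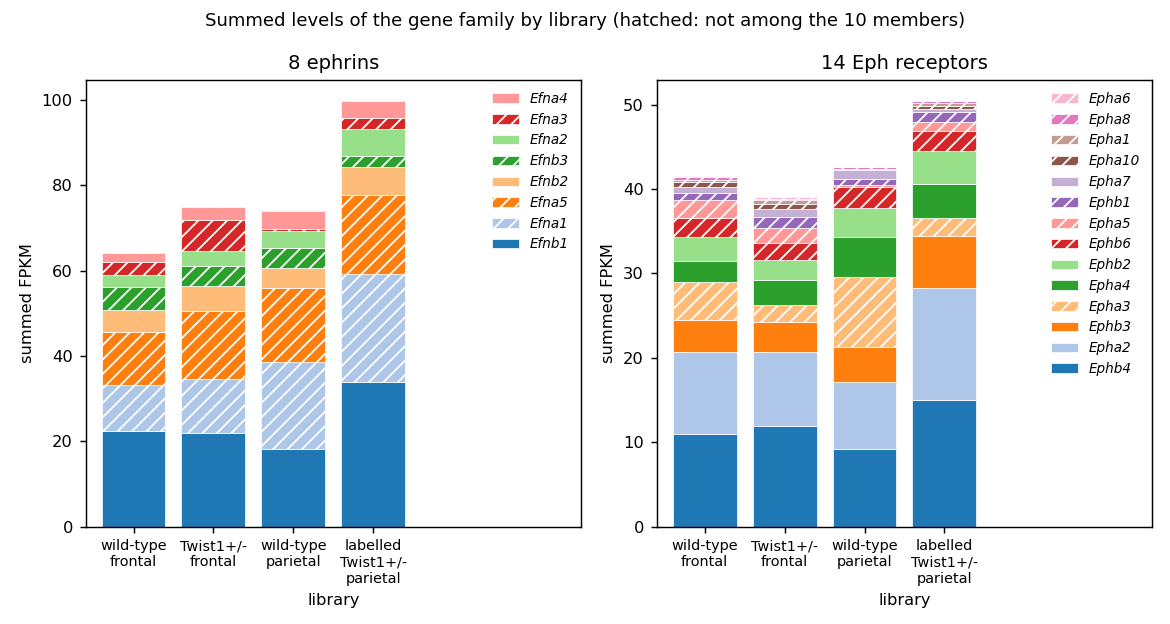
Stacked FPKM of the 8 ephrins (left) and the 14 Eph receptors (right) in each library, with genes outside the 10 described here hatched. *Efnb1*, *Efna1* and *Efna5* hold most of the ephrin sum, which goes from 64.2 FPKM in wild-type frontal to 99.8 FPKM in the labelled *Twist1*+/- parietal library, and *Ephb4* is the highest receptor in each library.

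The 12 other family members included all those that passed 3-fold. Between the parietal bones, *Efna3* (0.370 to 2.62 FPKM, 7.08-fold) and *Epha5* (0.227 to 1.04 FPKM, 4.59-fold) were higher in the library labelled *Twist1*+/-, and *Epha3* (8.23 to 2.199 FPKM, 3.74-fold) was lower. After subtraction of the GC group median, *Epha3* was at a log2 ratio of -1.31, under 3-fold. *Efna3* (2.51) and *Epha5* (2.79) stayed past it. *Epha3*, like *Epha4* and *Epha7* a receptor for ligands of class A, was also lower in *Twist1*+/- frontal bone, by 2.15-fold from 4.52 to 2.10 FPKM. Between the wild-type bones, *Efna3* and *Epha5* were lower in parietal bone by 7.98-fold and 9.58-fold. *Efna3* and *Efna4* lie next to each other on chromosome 3 of mm9, *Efna3* from 89117821 to 89126887 and both on the reverse strand, yet *Efna3* spanned 19.97-fold over the 4 libraries and *Efna4* 1.96-fold. The summed level of neuronal and glial markers was lowest in wild-type parietal bone, as *Efna3* and *Epha5* were. Of that list, however, *Nefm* was highest there, at 2.59 FPKM. *Nefl* (1.66 FPKM), *Gap43* (6.17 FPKM) and *Stmn2* (9.49 FPKM) were lowest in the labelled *Twist1*+/- parietal library. The part of these cells in the values of *Efna3* and *Epha5* was not tested. *Efnb3*, the remaining ligand of class B, was at 5.43 and 4.71 FPKM in wild-type and *Twist1*+/- frontal bone and at 4.53 and 2.68 FPKM in wild-type and labelled *Twist1*+/- parietal bone, lowest where *Efnb1* and *Efnb2* were highest. Among the remaining receptors, *Ephb6*, which lacks kinase activity, was at 1.98 to 2.58 FPKM and *Ephb1* at 0.736 to 1.30 FPKM. *Epha1* (0.116 to 0.556 FPKM), *Epha6* (0.0187 to 0.194 FPKM), *Epha8* (0.1298 to 0.354 FPKM) and *Epha10* (0.0260 to 0.551 FPKM) stayed under 1 FPKM in all 4 libraries.

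The partners that carry Eph and ephrin signals into the cell were followed in a list of 32 genes, among them adaptors, kinases, exchange factors and small GTPases. Between the parietal bones 1 was past 3-fold, *Ngef*, an exchange factor that acts with *Epha4*, at 1.08 FPKM in wild-type and 3.79 FPKM in the labelled *Twist1*+/- parietal library (3.49-fold). By more than 1.5-fold 5 were higher there and 3 lower, with *Rock1*, a kinase of the actin cytoskeleton, higher by 2.21-fold and *Sdcbp*, which binds the tail of class B ephrins, and the GTPase *Cdc42* lower by 1.76-fold and 1.58-fold. These counts lie below the shares over all genes, 21.2% higher and 23.8% lower. After subtraction of the GC group median, *Sdcbp* was at a log2 ratio of -0.22 and *Cdc42* at -0.08, both under 1.5-fold, while *Rock1* was at 1.73 and *Ngef* at 1.49. Between the frontal bones 0 were higher and 1, the adaptor *Anks1b*, was lower, by 1.51-fold, against 8.01% and 7.23% of all genes. *Itsn1* (1.47-fold lower), *Nck2* (1.36-fold higher) and *Grip1* (1.31-fold higher) were the other ends of the list there. Between the wild-type bones 2 were higher in parietal bone, *Sdcbp* (1.67-fold) and *Cdc42* (1.61-fold), and 8 were lower, among them the Rac activator *Tiam1* (2.46-fold) and *Ngef* (2.24-fold), a share close to the 25.6% of all genes that were lower. *Anks1b*, which had 0.216 FPKM in parietal and 2.44 FPKM in frontal bone, was the only partner past 3-fold there. Between the bones labelled *Twist1*+/- 0 were higher and 5 lower in parietal bone, against 11.6% and 18.9% of all genes. Among partners at or above 1 FPKM in both libraries, the lowest ratios were those of *Vav3* (1.84-fold lower) and *Kalrn* (1.66-fold lower). The highest were those of *Src* (1.49-fold higher) and *Ngef* (1.46-fold higher). The median log2 ratio of the list was 0.15, -0.01, -0.25 and -0.11 in these comparisons.

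Of 14 genes of the calvarial and suture mesenchyme, 9 were higher by more than 1.5-fold in wild-type parietal than in wild-type frontal bone and 0 were lower, against 23.0% and 25.6% of all genes, with a median log2 ratio of 0.66 against -0.01 for all genes. *Msx2*, a homeobox factor of the osteogenic front that acts with *Twist1* and *Epha4* at the coronal suture, was at 1.52 FPKM in wild-type frontal, 1.97 FPKM in *Twist1*+/- frontal, 5.44 FPKM in wild-type parietal and 2.90 FPKM in the labelled *Twist1*+/- parietal library. This is again the order of libraries of *Efna4* and *Epha4*, but it was not particular to these genes. The osteoblast markers *Runx2* and *Ibsp* had the same order, and the share of all genes with it was not computed. *Gli1*, a hedgehog target that marks suture stem cells, was higher in parietal bone by 1.68-fold in wild-type bone and by 1.68-fold between the bones labelled *Twist1*+/-. *Six2*, *Prrx1* and *Zic1* were higher in wild-type parietal bone by 1.69-fold, 1.59-fold and 1.71-fold. So were *Lmx1b* (4.07-fold, at 1.01 against 0.248 FPKM), *Fgfr2* (1.84-fold), *Tcf12* (1.58-fold) and *Msx1* (1.52-fold). After subtraction of the GC group median *Prrx1* (0.55) and *Tcf12* (0.50) were under 1.5-fold in that comparison. *Gapdh* itself was at a log2 ratio of 0.44 there. Scaling to *Gapdh* would lower all of these log2 ratios by as much, and the count of 9 was not recomputed with it. Between the parietal bones *Msx2* (1.88-fold) and *Tcf12* (1.99-fold), the partner of *Twist1*, were lower in the library labelled *Twist1*+/-, as was *Lmx1b*, while *En1* (2.50-fold) and *Axin2* were higher. After subtraction of the GC group median, *Msx2* (-0.58), *Tcf12* (-0.53) and *Axin2* (0.38) were under 1.5-fold on the log2 scale, and *Lmx1b* (-1.63) and *En1* (1.12) were past it. Between the frontal bones *Twist1* alone of the 14 passed 1.5-fold. Among genes higher between the bones labelled *Twist1*+/- were *Twist1* (1.67-fold), *Gli1*, *Axin2* and *Zic1* (2.32-fold), 4 of 14 against 11.6% of all genes, with 0 lower. After subtraction of the GC group median *Zic1* (1.44) was still past 1.5-fold, and *Axin2* (0.50), *Gli1* (0.42) and *Twist1* (0.41) were not.

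The 3 members with the widest range of log2(FPKM + 1) over the 4 libraries were *Efna2*, *Efnb1* and *Epha4*. By the Euclidean distance of centred log2(FPKM + 1) values over the 4 libraries, the genes nearest to *Efna2* were *Shf* (0.05), *Fam98c* (0.05) and *Nfix* (0.06), those nearest to *Efnb1* were *Hdhd3* (0.03), *Hsf4* (0.05) and *Adam15* (0.05), and those nearest to *Epha4* were *Zdhhc4* (0.03), *Iscu* (0.04) and *Acadm* (0.05). With 4 libraries, many genes can share a pattern this closely.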

How the data were processed

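The authors prepared stranded poly(A) libraries, aligned single-end reads of 75 bases to mm9 with STAR 2.4.2a and quantified genes with Cuffdiff (Cufflinks 2.2.1, annotation from iGenomes). Each deposited table lists 1 FPKM value for every gene. Each of the 4 libraries was assigned by its sample label. The scaling option of Cuffdiff is not given in the sources used here, and with FPKM alone no interval or detection floor is given. The members and lists were chosen with earlier results of these data known.

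Ratios of FPKM were formed in 4 comparisons. A gene was counted past 3-fold or 1.5-fold where the higher library reached 1 FPKM. Genes were named by a fixed rule, which took all 10 members, the other 12 of their family, *Twist1* and *Msx2*. It also took mesenchyme genes past 1.5-fold, and signal partners past 3-fold or at the ends of their list. The 3 genes nearest to each of the 3 members of widest range completed it. Neighbours and overlapping genes of *Efna4* and *Ephb4* and single cell type markers were added. Positions, length and GC content came from GENCODE M1 (mm9, the build of the study, with another annotation), with the longest coding transcript for each gene. Read numbers were estimated from the first step of FPKM times length over 6106 genes with 1 coding transcript. Promoters came from a RefSeq table (GRCm38.p6), a different build. The counts and ratios of the 10 genes were recomputed with 1 or 0.1 FPKM added to each value. They were also recomputed with scaling to the median ratio or to *Gapdh*, and with subtraction of the median of 20 GC groups. Their counts were recomputed with the floor removed or, past 3-fold, with a floor of 10 FPKM. The counts of the other lists were not recomputed. The procedures ran in Python 3.11.15 with pandas 2.3.3. Only the calls past 3-fold and the scaling to the median ratio were tested on simulated data.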

Additional observations from a re-analysis of the deposited data

Results flagged for a closer look

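In 7 of the 10 genes the difference between the *Twist1*+/- label and wild-type had opposite directions in parietal and frontal bone. The same held for 46.0% of the 14542 genes that were above 0 in all libraries and reached 1 FPKM in at least 1. With 1 library per condition these differences between bones were not tested. Expressed as the parietal minus the frontal log2 ratio, they were largest for the receptor *Epha7* (-1.93), which was lower with the label in parietal and higher in frontal bone. *Efna4* (-0.53) and *Epha4* (-0.52) showed the same directions. *Efnb1* (0.93), *Epha2* (0.89), *Ephb3* (0.66) and *Ephb2* (0.52) showed the opposite, being higher with the label in parietal and lower in frontal bone. After subtraction of the median of genes of similar GC content, 5 of the 10 genes had opposite directions. The share of all genes after this subtraction was not computed. *Ephb2* was then at 0 in parietal bone, so it had no direction there and was not among the 5. The values became -1.40 for *Epha7*, -0.98 for *Efna4* and -0.13 for *Epha4*. They became 0.40 for *Efnb1*, 0.44 for *Epha2*, 0.21 for *Ephb3* and 0.28 for *Ephb2*. The libraries labelled *Twist1*+/- and wild-type differed in *Twist1* by 1.94-fold in frontal and by 1.04-fold in parietal bone.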

How the results depend on the processing

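No member passed 3-fold in any comparison under any alternative tried. The counts past 1.5-fold moved. Between the parietal bones, the 4 higher members became 7 with scaling to *Gapdh* (which shifts all log2 ratios by 0.39 here) and 1 (*Efnb2*) with the GC trend subtracted, and the 1 lower member became 0 with a pseudocount of 1 FPKM and 2 (*Efna4* and *Epha7*) with the GC trend subtracted. Between the wild-type bones, scaling to *Gapdh* gave 0 higher members in place of 3 and 3 lower (*Efnb1*, *Epha2* and *Ephb4*) in place of 0. Between the bones labelled *Twist1*+/-, the 5 higher members became 3 with a pseudocount of 1 FPKM and 1 (*Epha4*) with the GC trend subtracted, and *Epha7* was counted as 1 lower member without a floor. The counts with the GC trend subtracted were added after the data were seen. Of 200 recomputed log2 ratios, 6 reversed. With scaling to *Gapdh* these were *Efna4* (0.21) and *Epha4* (0.13) between the parietal bones and *Ephb2* (-0.26) and *Ephb3* (-0.30) between the wild-type bones. *Epha4* between the parietal bones was at 0.21 with the GC trend subtracted, and *Efnb1* between the frontal bones was at 0.0192 with the median ratio set to 0. Another 32 crossed 1.5-fold. The cause was not tested. No paired analysis was possible because each condition had 1 library and no result came from a test, and for the same reason no replicate could be left out.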
